A study of Mus musculus with 47 samples.

Results

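Lymphoid-primed progenitors were set against megakaryocyte-erythroid progenitors of adult mouse bone marrow. The lymphoid side held the populations labelled LMPP (5 arrays), CLP (2 arrays) and ETP (3 arrays), and the megakaryocyte-erythroid side those labelled MkE (4 arrays), PreCFUE (3 arrays) and MkP (3 arrays). These 20 arrays belong to a set of 47 Affymetrix arrays of 17 purified C57Bl6 marrow populations, with RNA of 2000 cells per array amplified before hybridisation. The labels give no genotype or treatment and spell out neither the names nor the surface markers used for sorting. In this field the names usually stand for lymphoid-primed multipotent, common lymphoid and early T-lineage progenitors on one side and for bipotent megakaryocyte-erythroid, early erythroid and megakaryocyte progenitors on the other. Every group, ETP included, is labelled as bone marrow. The arrays of a population are labelled biological replicates, but the labels do not say which came from separate or pooled animals, so p-values measure only the spread between these arrays.

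Blood cell types arise from stem cells through progenitors whose options narrow step by step. On the lymphoid branch, the cytokine receptors Flt3 and Il7r, the receptor Notch1 and factors such as Ebf1 and Satb1 prepare cells to rearrange antigen receptor genes with the Rag enzymes and terminal transferase. On the megakaryocyte-erythroid branch, Gata1 and its partners drive both fates, Klf1 the erythroid and Fli1 the megakaryocytic one.

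A level is given here as log2 of the deposited intensity of the brightest probe set of a gene. A difference is the mean of the 3 lymphoid populations minus the mean of the 3 megakaryocyte-erythroid populations, each population weighted equally. A gene was called where the limma fit of all arrays gave a Benjamini-Hochberg adjusted p under 0.05 and a difference of at least 2-fold. It was separated where all 3 lymphoid population means lay above, or all 3 below, the 3 means of the other side. Of 13949 genes tested, 2322 were separated, 1127 of them higher (8.08% of genes tested) and 1195 lower (8.57%) in lymphoid progenitors. Separation alone is a loose criterion. In simulated arrays of 13949 genes, 1342 genes given the same mean in all populations of both sides were separated, and 1 was called. That simulation left out differences among the populations of a side. In the real arrays, 61.4% of genes tested differed within the lymphoid side and 43.1% within the other (moderated F-test). The simulation thus does not show how many calls such differences alone would give. At the edge of that rule, the nearest means of Naa20 lay 0.00045 apart and it was kept, whereas those of Lancl2 crossed by 0.00011 and it was not.

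The markers Flt3, Il7r, Gata1 and Pf4 were where the names place them, but Gata1 did not tell MkE from PreCFUE. None of them is particular to ETP. Flt3 read 10.18 to 10.99 on LMPP and CLP arrays and 7.73 to 8.55 on ETP arrays, and Il7r was highest in CLP, at 10.90 and 11.20. Gata1 read 9.90 to 11.34 on the 10 megakaryocyte-erythroid arrays, and the platelet chemokine gene Pf4 read 12.13 to 12.27 in MkP against 4.88 to 6.23 in MkE and PreCFUE. Each of the 20 arrays correlated best with an array of its own population, and the first principal component (38.4% of the variance) ran from -67.7 to -35.5 over lymphoid arrays and from 6.62 to 78.4 over the others. The second component (20%) did not follow the sides, at 56.2 and 65.9 in CLP, 28.4 to 54.1 in MkP and -54.2 to -51.8 in ETP. All lymphoid arrays but CLP array 2 correlated better with some array of the other side than with their least similar lymphoid array. For LMPP array 3 these values were 0.928 and 0.874.

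The sides also differed in transcripts that have no lineage role. The Y-linked Eif2s3y read 5.74 to 8.53 on all 10 lymphoid arrays, against 2.17 to 2.96 on all 10 megakaryocyte-erythroid arrays. Xist, the transcript of the inactive X chromosome, read 3.76 to 11.21 on lymphoid arrays, against 10.23 to 11.51 on megakaryocyte-erythroid arrays. On the lymphoid side, 5 arrays (LMPP 3 to 5, ETP 2 and 3) carried both transcripts and 5 carried Eif2s3y without Xist. The lineage side and the sex of the donor animals, or any batch that goes with it, therefore cannot be told apart in these 20 arrays. An alternative fit took the class of sex-linked transcripts as a block. Between the Xist-only and Eif2s3y-only classes, its effect rests on the 4 PreB arrays alone. In that fit the named genes Id2, Ets1, Lmo2, Mef2a, Csf1r, Ccr9, Cxcr4, Klrd1, Mpeg1, Rhd, Alad, Urod, Fech, Hoxa9, Plk1 and Egr1 no longer held their calls in the same direction. The PreB arrays varied widely for some of these genes, with SDs of 3.82 for Ccr9, 2.83 for Mpeg1, 2.35 for Klrd1 and 2.04 for Csf1r. For others the SD was small, at 0.26 for Mef2a and 0.67 for Ets1. The part of this spread in the lost calls was not tested. Immediate early genes, which cells switch on within minutes of handling or stimulation, stood apart on some arrays too: their mean level was 8.92 to 9.30 on LMPP arrays 1 to 3 and 8.46 and 8.78 on ETP arrays 2 and 3, and 5.17 to 6.36 on the other lymphoid arrays, against 4.57 to 5.19 on the megakaryocyte-erythroid arrays. No named gene lost its call without LMPP arrays 4 and 5. Without LMPP arrays 1 to 3 and ETP arrays 2 and 3, the named genes Egr1, Xrcc6, Plk1 and Cdc6 lost theirs.

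**Figure D1:**
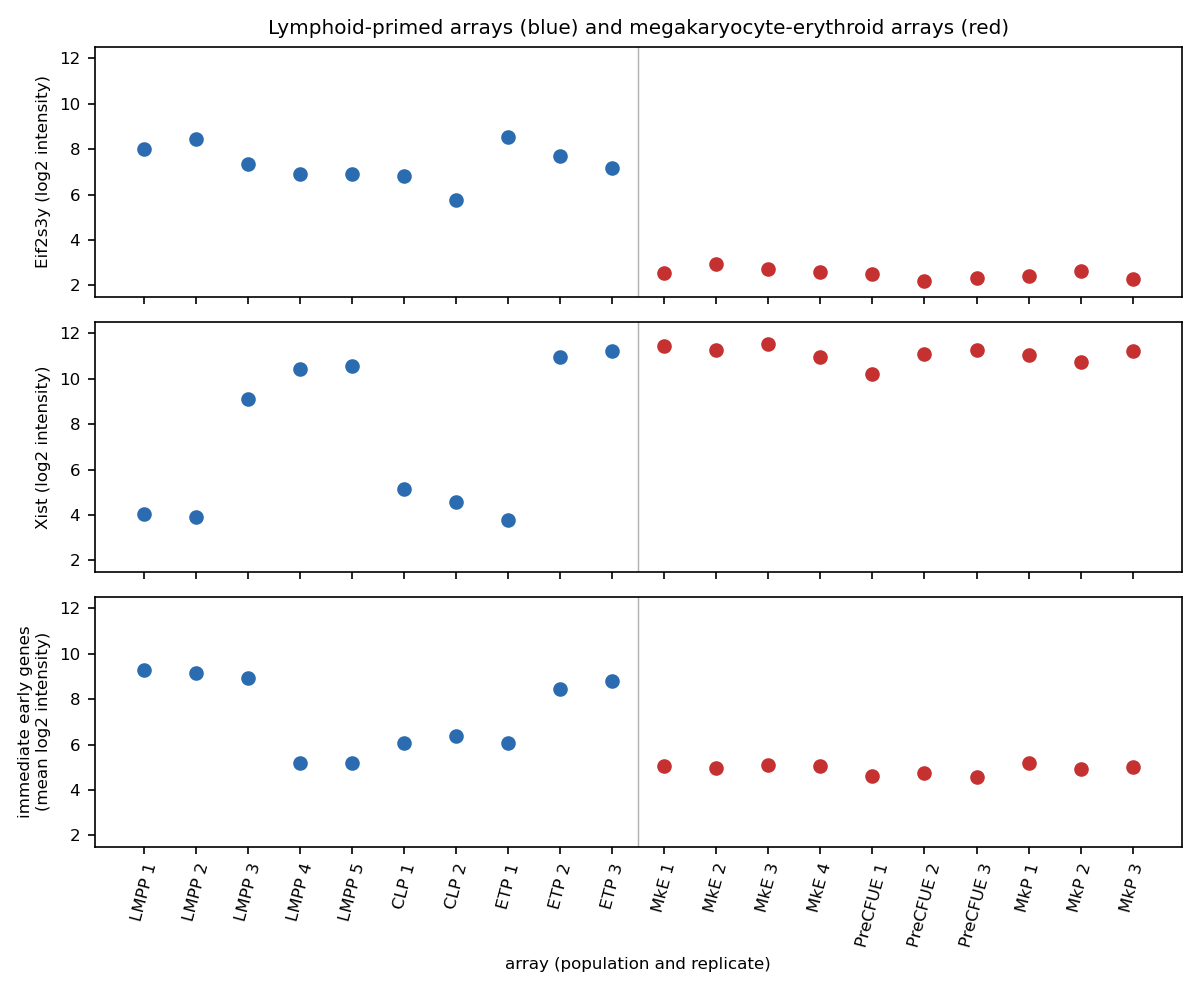
Level of the Y-linked Eif2s3y (top), of Xist (middle) and the mean level of 18 immediate early genes (bottom), all in log2 intensity, on each of the 20 arrays; blue, lymphoid-primed populations; red, megakaryocyte-erythroid populations. Eif2s3y separates the sides without overlap (5.74 to 8.53 against 2.17 to 2.96), Xist is high on 5 of the 10 blue arrays and all red ones, and the immediate early genes are high on 5 blue arrays.

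Lymphoid progenitors carried 827 genes called higher (5.93% of genes tested) and 836 called lower (5.99%), around a median difference of -0.05 over all genes. Of these, 635 higher (4.55%) and 491 lower (3.52%) were also separated. The gene lists below count called genes, separated or not. The 10 and the 10 arrays did not overlap for 320 higher (2.29%) and 216 lower (1.55%) of all genes tested. All 9 pairs of a lymphoid with a megakaryocyte-erythroid population were called the same way for 198 higher (1.42%) and 89 lower genes (0.638%). In such bulk RNA, fewer cells of a type and less RNA per cell cannot be told apart. With 3 populations against 3, an exact permutation test over populations could not have given a p below 0.1.

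**Figure D2:**
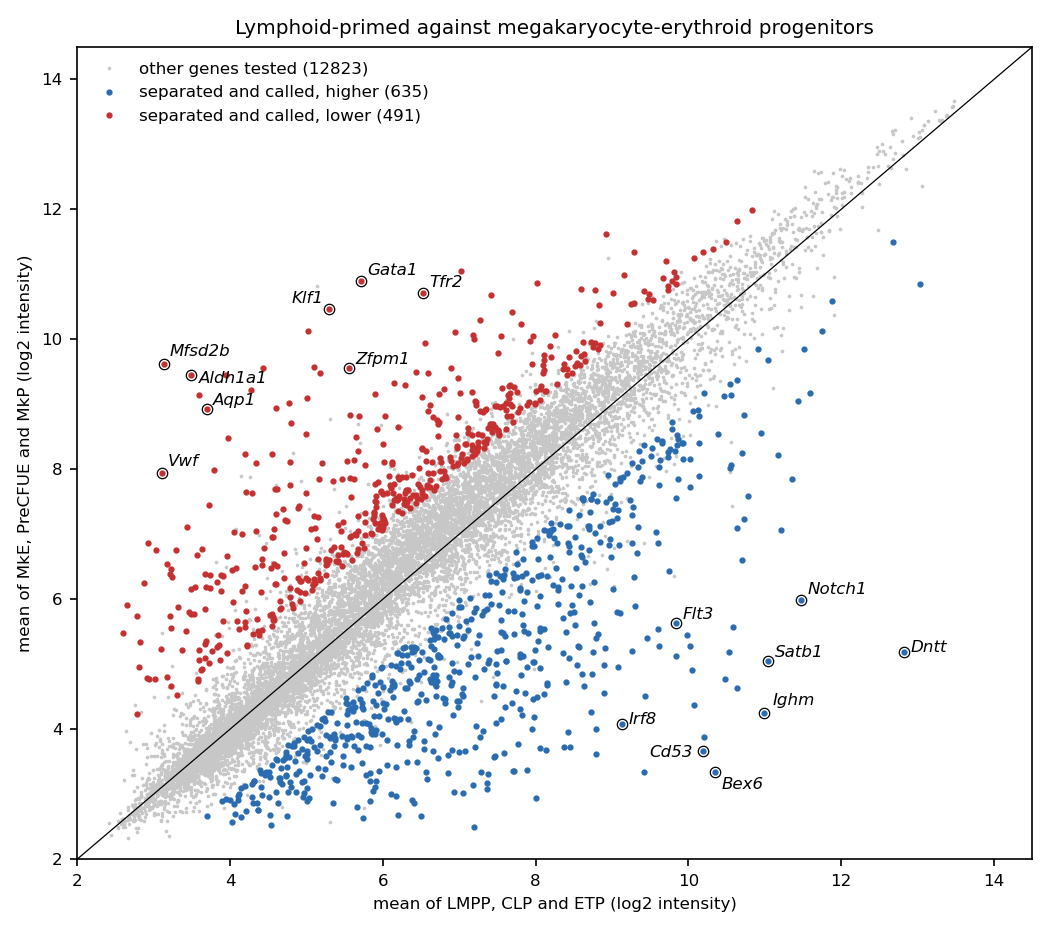
Mean level of LMPP, CLP and ETP (horizontal) against that of MkE, PreCFUE and MkP (vertical), in log2 intensity, for the 13949 genes tested; blue and red mark the 635 higher and 491 lower genes that were separated and called, and the line marks equal levels. Dntt lies farthest to the lower right (12.83 against 5.19), and Mfsd2b, Gata1 and Klf1 lie far above the line.

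The gene with the greatest difference between the sides was Dntt, on chromosome 19, which encodes terminal transferase, the polymerase that adds untemplated bases to antigen receptor joints. It read 12.47, 12.47, 11.63, 13.00 and 12.99 in LMPP, 13.41 and 13.08 in CLP and 12.85, 12.66 and 12.66 in ETP. In MkE it read 5.67, 4.94, 5.21 and 4.92, in PreCFUE 4.66, 5.38 and 5.22, and in MkP 5.28, 5.77 and 4.83. Every lymphoid array lay above every megakaryocyte-erythroid array, and the difference was 7.64 ± 0.24 (SE; 199-fold; limma adjusted p = 1.7e-25), with all 3 probe sets between 6.27 and 7.64. Over the 9 pairs of populations the difference ran from 7.22 to 8.16.

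At the other end stood Mfsd2b, which encodes the sphingosine-1-phosphate exporter of red cells and platelets. It read 3.00, 3.08, 2.90, 3.23 and 2.99 in LMPP, 3.42 and 2.89 in CLP and 3.03, 3.35 and 3.21 in ETP. The MkE arrays read 10.26, 10.14, 10.78 and 10.41, in PreCFUE 9.39, 9.28 and 9.48, and in MkP 8.77, 9.42 and 9.05. The difference was -6.49 ± 0.16 (SE; 89.9-fold lower; limma adjusted p = 5.5e-28), and the sides did not overlap.

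The remaining 11 of the 12 greatest rises among plain symbols without overlap of arrays were Bex6, Ighm, Cd53, Chdh, Satb1, Ctss, Kbtbd11, Notch1, Cnn3, Atp8b4 and Rgs2, with differences of 7.01 for Bex6 down to 5.14 for Rgs2. Bex6, a small brain-expressed X-linked family member, averaged 9.71 in LMPP, 9.85 in CLP and 11.48 in ETP, against 3.27 in MkE, 2.67 in PreCFUE and 4.07 in MkP. Cd53, a leukocyte tetraspanin, read 9.29 to 10.78 on lymphoid arrays and 2.91 to 4.62 on the others (difference 6.53 ± 0.17 SE). Cnn3, a calponin that binds actin, read 9.27 to 11.60 on lymphoid arrays, against 4.26 to 4.92 in MkE, 7.11 to 7.94 in PreCFUE and 3.10 to 3.39 in MkP, so PreCFUE stood between.

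The remaining 11 of the 12 greatest falls among plain symbols without overlap of arrays were Aldh1a1, Ces2g, Grb10, Aqp1, Gata1, Klf1, Apoe, Tnfaip2, Mt1, Vwf and Nckap1. Aldh1a1, a retinaldehyde dehydrogenase, read 2.86 to 4.12 on lymphoid arrays and 8.41 to 10.07 on the others (-5.97 ± 0.31 SE). Grb10, an imprinted adaptor of growth factor receptors, read 3.43 to 4.63 against 8.18 to 10.24 (-5.50 ± 0.19 SE), although its 3 probe sets ran from -5.50 to 0.03. Apoe, the lipid carrier of lipoproteins, differed by -5.12 ± 0.21 (SE), with its highest levels in MkE (10.47 to 11.43). Nckap1, a subunit of the WAVE actin regulator, had the tightest range of pairwise differences among these falls, 4.27 to 4.80 lower.

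Transcription factors divided along the lineages, but unevenly. Of 27 lymphoid factors tested, 9 were called higher and none lower (median difference 0.76, against -0.05 for all genes), and of 20 megakaryocyte-erythroid factors 8 were called lower and 1 higher (median -0.70). Every array of the lymphoid side had a higher mean level of the first list (6.59 to 7.32 against 5.43 to 5.99) and a lower mean level of the second (6.70 to 7.26 against 7.93 to 8.63).

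Satb1, a chromatin organiser needed for normal lymphoid development, led the lymphoid factors. It read 10.78, 10.66, 10.19, 11.28 and 11.33 in LMPP, 11.17 and 10.89 in CLP and 11.41, 11.09 and 11.28 in ETP. On MkE arrays it read 6.30, 6.02, 6.90 and 6.2, in PreCFUE 4.18, 4.67 and 3.79, and in MkP 4.60, 5.06 and 4.11. The sides did not overlap (6.0 ± 0.20 SE, 63.8-fold, limma adjusted p = 1.2e-24), and MkE held the highest levels of its side. Irf8, a factor of lymphoid and dendritic cells, read 7.74 to 10.10 against 3.18 to 4.85 (5.06 ± 0.20 SE). Gfi1, a zinc finger repressor, read 5.49 to 8.52 against 2.76 to 3.55 (4.04 ± 0.20 SE), the lowest lymphoid values being those of CLP. Id2, an inhibitor of E proteins, differed by 3.35 ± 0.39 (SE), but its LMPP arrays split into 4.40 to 5.32 on arrays 1 to 3 and 7.91 and 7.85 on arrays 4 and 5, the 2 arrays on which the immediate early genes were low. Without arrays 4 and 5 the difference of Id2 was 2.94.

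Spi1, which encodes the dose-sensitive factor PU.1, rose by a smaller amount (1.21 ± 0.19 SE), with LMPP at 6.74 to 7.78, CLP at 6.80 and 5.88 and ETP at 5.45 to 5.94, against 4.38 to 5.82 on the other side. ETP arrays thus overlapped with MkE and MkP arrays, and the difference was under 2-fold without LMPP (0.84) or PreCFUE (0.97). Ets1 (2.04 ± 0.21 SE) and Sox4 (2.39 ± 0.21 SE) were also called, with overlapping arrays: for Sox4, LMPP read 9.99 to 11.08 and MkE array 3 10.93, and the 8 probe sets of Sox4 ran from -0.05 to 2.51. Ebf1, which starts the B cell programme, was called higher (2.73 ± 0.24 SE). It read 10.81 and 10.39 in CLP, 2.51 to 3.02 on the other lymphoid arrays and 2.34 to 2.81 on the megakaryocyte-erythroid arrays. Without CLP the difference was 0.08. Pax5, its downstream partner in B cells, read 4.76 and 5.26 in CLP, 3.43 to 4.39 on the other lymphoid arrays and 3.35 to 4.63 on the other side, and it was not called (0.23 ± 0.16 SE).

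Other factors known for lymphoid work did not divide the sides. Ikzf1, which encodes Ikaros, read 10.30 to 11.04 on lymphoid arrays, against 10.48 to 10.88 in MkE, 10.75 to 10.87 in PreCFUE and 8.55 to 9.21 in MkP (0.63 ± 0.12 SE, under 2-fold). Tcf3, which encodes the E2A proteins, had a difference of -0.65 ± 0.21 (SE), and Foxo1, a regulator of Il7r and the Rag genes, one of 0.81 ± 0.16 (SE) with CLP at 10.21 and 10.07 and all 18 other arrays between 6.43 and 8.24. Myb, needed in both branches, had a difference of -0.17 ± 0.11 (SE).

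Gata1, on the X chromosome, encodes the central factor of the erythroid and megakaryocytic fates. It read 5.44, 5.27, 5.86, 5.43 and 5.58 in LMPP, 5.81 and 5.73 in CLP and 6.26, 5.65 and 5.64 in ETP. In MkE it read 11.09, 11.15, 11.29 and 11.17, in PreCFUE 11.28, 11.34 and 11.24, and in MkP 10.39, 10.44 and 9.90. The gap between the sides was wider than the whole range within either (-5.19 ± 0.15 SE, 36.5-fold lower, limma adjusted p = 3.7e-26). Klf1, the erythroid Kruppel-like factor, read 4.68 to 5.79 on lymphoid arrays, against 10.97 to 11.78 in MkE, 11.71 to 11.78 in PreCFUE and 7.81 to 8.65 in MkP (-5.17 ± 0.24 SE). MkP thus stood between the lymphoid and the erythroid levels.

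Partners of Gata1 fell too. Zfpm1, its cofactor FOG-1, differed by -4.0 ± 0.18 (SE), Gfi1b, a repressor and relative of Gfi1, by -3.54 ± 0.16 (SE) and Tal1, a partner in the same DNA-bound complex, by -2.43 ± 0.13 (SE), each without overlap of arrays and called in all 9 pairs. Gata2, which acts in stem cells and early progenitors, differed by -3.06 ± 0.14 (SE), with 5.46 to 7.64 on lymphoid arrays against 10.17 to 10.46 in MkE, 7.76 to 8.60 in PreCFUE and 9.89 to 10.22 in MkP. Nfe2, a factor of globin and platelet genes, differed by -1.52 ± 0.19 (SE), and by -0.69 without CLP. Lmo2, a bridging partner of Tal1, differed by -1.14 ± 0.17 (SE). Its lymphoid populations stood apart from each other, at 11.50 to 12.34 in LMPP, 8.91 and 8.57 in CLP and 8.99 to 9.29 in ETP against 10.32 to 11.60 on the other side. The difference was under 2-fold without CLP (-0.56), ETP (-0.74) or MkE (-0.95). Fli1, the megakaryocytic factor, had a difference of 0.05 ± 0.19 (SE): the lymphoid arrays read 5.79 to 8.60, between PreCFUE at 4.27 to 4.94 and MkP at 9.31 to 9.67. Without PreCFUE the difference of Fli1 was -1.22 and without MkP 1.22. Mef2a was the single member of this list called higher (1.08 ± 0.16 SE), and not without CLP (0.94) or PreCFUE (0.81).

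**Figure D3:**
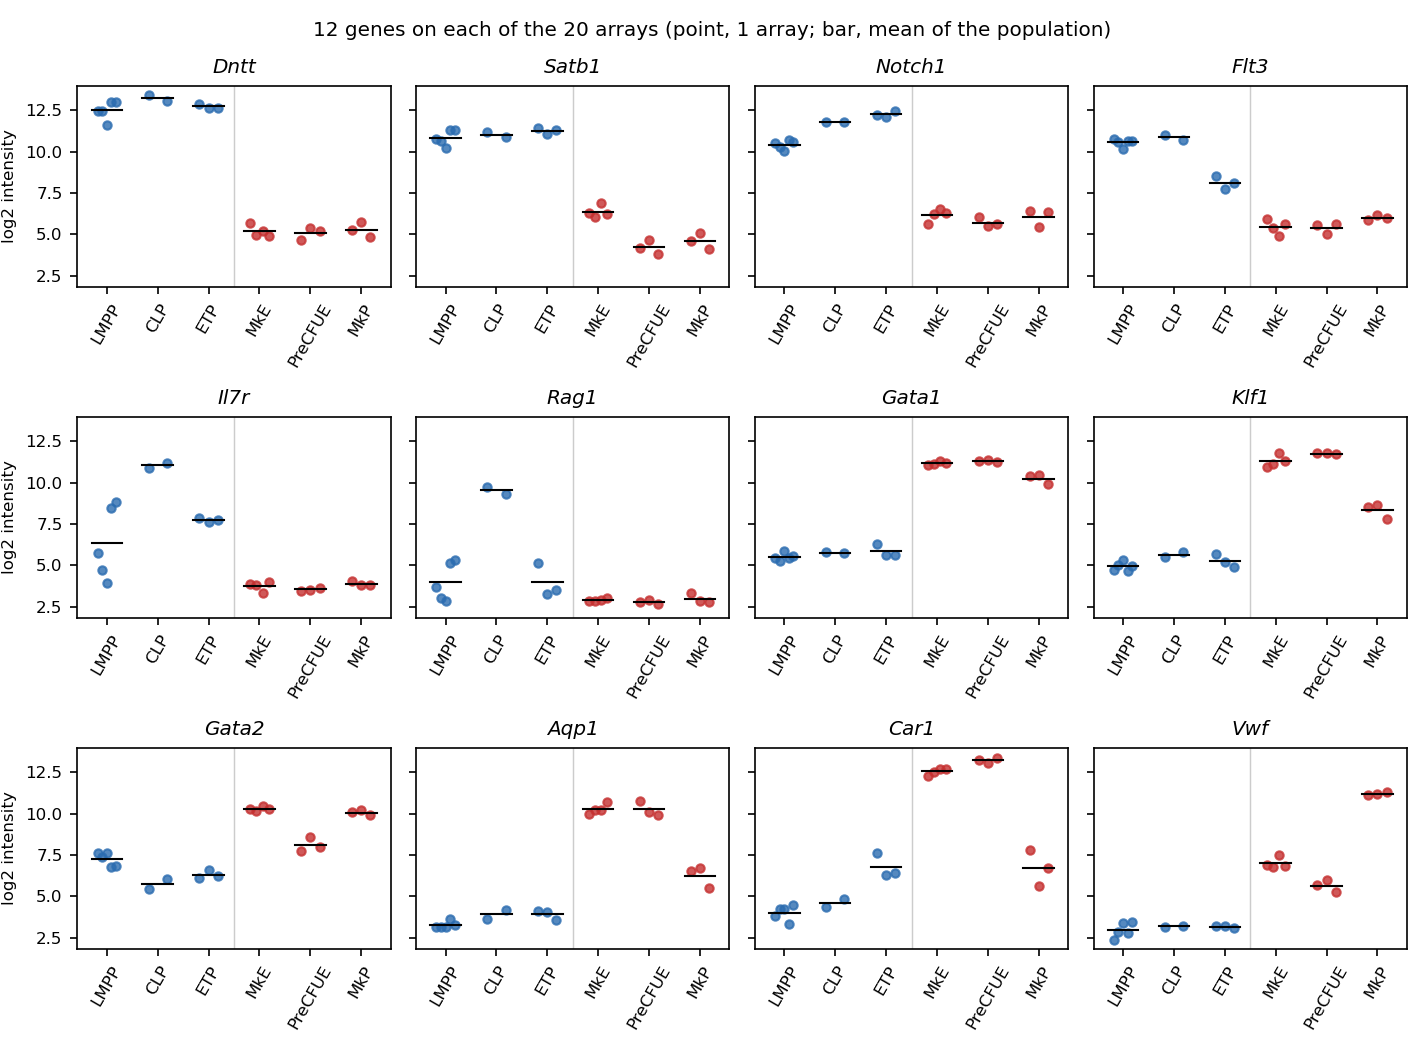
Level in log2 intensity of 12 genes on each of the 20 arrays, by population; blue, lymphoid-primed; red, megakaryocyte-erythroid; each point is 1 array and each bar the mean of a population. Dntt, Satb1, Notch1 and Gata1 show a wide gap between the sides, Il7r and Rag1 are highest in CLP (10.90 and 11.20 for Il7r), Car1 and Aqp1 are lower in MkP than in MkE and PreCFUE, and Vwf is highest in MkP (11.12 to 11.29).

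Short promoter sequences give these factors a context. RefSeq start sites (build GRCm38.p6) supplied windows for 500 of the 635 higher and 398 of the 491 lower genes, of which the 250 bases before the start were searched on both strands. The letters AGATAA or TGATAA, the core that GATA factors bind, stood in 52 of 499 windows of lower genes (10.4%) and in 84 of 727 windows of higher genes (11.6%), against 10.3% of windows of genes tested and 16.6% of all 32851 windows. The letters GAGGAAGT, the core that the factor PU.1 binds, stood in 42 of 727 windows of higher genes (5.78%) and in 7 of 499 windows of lower genes (1.4%), against 2.51% of windows of genes tested and 2.44% of all windows. The other letters searched were CCACACCC (3.44% of windows of higher and 4.41% of lower genes, against 3.53% of genes tested), TGTGGT (13.3% and 12.4%, against 11.3%), CAGGTG (18.7% and 14%, against 16.5%) and TGGGAA (19.1% and 21.4%, against 20.5%). TGTGGT on the opposite strand can overlap with CCACACCC. These shares are over windows, and a gene with several start sites counts more than once. The 500 higher genes gave 727 windows, the 398 lower genes 499, and 11211 of the genes tested 14287. The shares are descriptions with no test, and a match is not a binding site.

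Of these windows, 8 are printed, because their genes recur in the results and hold either core, which was known when they were chosen. Capitals mark the match, and each sequence runs 5′ to 3′ on the strand of its gene and ends at the base before the start. Klf1 lies on the plus strand at chr8:84901732-84901981, Gfi1b on the minus strand at chr2:28621983-28622232, Epor on the minus strand at chr9:21963577-21963826 and Dntt on the plus strand at chr19:41029025-41029274. Mpo lies on the plus strand at chr11:87793534-87793783, Atp8b4 on the minus strand at chr2:126491554-126491803, Btla on the plus strand at chr16:45224087-45224336 and Cd72 on the minus strand at chr4:43454627-43454876.
Klf1: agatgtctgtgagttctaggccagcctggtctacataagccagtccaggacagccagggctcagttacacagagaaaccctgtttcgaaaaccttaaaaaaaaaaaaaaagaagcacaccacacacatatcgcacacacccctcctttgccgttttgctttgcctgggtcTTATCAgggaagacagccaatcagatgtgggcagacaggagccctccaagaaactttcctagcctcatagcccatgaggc
Gfi1b: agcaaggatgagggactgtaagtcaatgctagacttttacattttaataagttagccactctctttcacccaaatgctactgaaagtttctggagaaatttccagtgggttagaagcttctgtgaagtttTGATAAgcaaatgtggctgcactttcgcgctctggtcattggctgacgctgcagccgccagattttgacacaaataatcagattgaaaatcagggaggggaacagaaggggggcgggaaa
Epor: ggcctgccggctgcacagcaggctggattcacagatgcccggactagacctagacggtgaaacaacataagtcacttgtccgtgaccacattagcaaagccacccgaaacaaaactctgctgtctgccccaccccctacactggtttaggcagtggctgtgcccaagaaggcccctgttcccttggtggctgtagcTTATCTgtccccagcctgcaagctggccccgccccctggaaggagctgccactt
Dntt: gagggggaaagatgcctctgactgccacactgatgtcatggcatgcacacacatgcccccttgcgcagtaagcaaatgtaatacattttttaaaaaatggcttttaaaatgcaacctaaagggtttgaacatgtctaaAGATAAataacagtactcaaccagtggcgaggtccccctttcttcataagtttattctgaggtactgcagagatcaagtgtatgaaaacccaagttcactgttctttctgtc
Mpo: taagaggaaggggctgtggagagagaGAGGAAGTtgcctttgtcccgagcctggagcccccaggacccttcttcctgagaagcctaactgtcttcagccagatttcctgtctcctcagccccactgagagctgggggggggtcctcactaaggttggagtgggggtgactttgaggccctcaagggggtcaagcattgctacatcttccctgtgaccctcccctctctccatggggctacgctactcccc
Atp8b4: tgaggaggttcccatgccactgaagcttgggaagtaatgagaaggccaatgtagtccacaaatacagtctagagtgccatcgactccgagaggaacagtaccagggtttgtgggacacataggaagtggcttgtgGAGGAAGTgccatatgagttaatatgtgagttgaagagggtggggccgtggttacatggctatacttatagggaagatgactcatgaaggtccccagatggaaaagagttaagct
Btla: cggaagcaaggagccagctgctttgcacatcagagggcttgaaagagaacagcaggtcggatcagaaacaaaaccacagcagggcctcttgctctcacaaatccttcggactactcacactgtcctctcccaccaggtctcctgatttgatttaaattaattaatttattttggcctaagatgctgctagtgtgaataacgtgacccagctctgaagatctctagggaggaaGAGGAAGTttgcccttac
Cd72: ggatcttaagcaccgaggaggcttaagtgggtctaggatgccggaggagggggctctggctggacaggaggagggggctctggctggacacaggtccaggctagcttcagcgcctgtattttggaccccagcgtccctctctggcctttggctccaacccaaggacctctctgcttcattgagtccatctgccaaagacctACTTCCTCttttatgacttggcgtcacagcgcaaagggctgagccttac

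Receptors that receive lymphoid signals were in part higher. Of 19 cytokine and antigen receptor genes tested, 7 were called higher and none lower (median 0.69, against -0.05 for all genes), and 3 of the 7 were separated. Notch1, of the Notch list, the receptor that directs progenitors to the T lineage, read 10.51, 10.28, 10.03, 10.69 and 10.58 in LMPP, 11.76 and 11.81 in CLP and 12.21, 12.06 and 12.45 in ETP. The MkE arrays read 5.65, 6.21, 6.55 and 6.27, in PreCFUE 6.03, 5.48 and 5.60 and in MkP 6.39, 5.45 and 6.37. ETP lay highest, LMPP lowest of the lymphoid side, and the sides did not overlap (difference 5.50 ± 0.16 SE, 45.3-fold, limma adjusted p = 1.6e-26).

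Flt3, the receptor tyrosine kinase of early lymphoid progenitors, read 10.18 to 10.99 in LMPP and CLP and 7.73 to 8.55 in ETP, against 4.90 to 6.19 on the other side (4.22 ± 0.19 SE). Il7r, the receptor chain for interleukin 7, read 5.76, 4.72, 3.94, 8.44 and 8.80 in LMPP, 10.90 and 11.20 in CLP and 7.86, 7.64 and 7.75 in ETP. On MkE arrays it read 3.88, 3.80, 3.35 and 3.98, in PreCFUE 3.48, 3.54 and 3.64 and in MkP 4.03, 3.80 and 3.84. LMPP array 3 lay within the range of the other side, whereas LMPP arrays 4 and 5 lay above ETP. The difference was 4.64 ± 0.36 (SE) and stayed called, at 4.14, without LMPP arrays 4 and 5. Kit, the stem cell factor receptor, was not called (-0.48 ± 0.25 SE): CLP was lowest at 6.68 and 6.51, and MkP next at 7.64 to 8.18.

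Most other Notch pathway genes were not called. Of 18 tested, 3 were called higher and 1 lower (median 0.19). Mfng, a glycosyltransferase that modifies Notch receptors, read 7.32 to 8.95 against 5.64 to 6.63 (1.77 ± 0.17 SE). Targets of the pathway were high in ETP. Hes1 read 6.98 to 7.71 there, against 4.80 to 5.07 in CLP and 3.22 to 4.66 on the other side, and its call (1.47 ± 0.32 SE) was lost without ETP (0.60). Nrarp, a feedback inhibitor, read 7.76 to 8.43 in ETP and 4.64 to 5.83 in LMPP and CLP, against 4.65 to 6.79 on the other side, and was not called (0.57 ± 0.16 SE). Dtx1, another target, was not called either (0.74 ± 0.18 SE). LMPP array 1 stood apart for Hes1, at 6.31.

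Homing receptors were higher for 6 of 19 genes tested and lower for 1 (median 0.68). Ccr9, the chemokine receptor of thymus-seeding cells, read 7.88 to 7.93 in CLP and 6.82 to 7.96 in ETP, 6.23, 4.10, 3.12, 7.04 and 7.26 in LMPP, against 2.79 to 3.28 on the other side (3.90 ± 0.59 SE, and -2.76 with the class of sex-linked transcripts as a block). LMPP arrays thus spanned from the level of the megakaryocyte-erythroid side to that of CLP. Cxcr4, which retains cells in marrow, likewise split LMPP into 7.61, 6.02, 5.76, 9.58 and 10.10, against 6.29 to 7.19 on the other side (2.13 ± 0.44 SE, and 1.68 without LMPP arrays 4 and 5). Selplg, the ligand of P-selectin, was separated without overlap (9.28 to 10.46 against 7.69 to 9.10, 1.48 ± 0.12 SE). Itga6, an integrin chain for laminin, was the member called lower (-1.99 ± 0.12 SE).

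Genes of antigen receptor assembly were less uniform than Dntt. Of 10 V(D)J recombination genes tested, 4 were called higher and none lower (median 0.20). Rag1, a subunit of the recombinase, read 9.75 and 9.30 in CLP, 3.67, 3.01, 2.87, 5.15 and 5.30 in LMPP and 5.17, 3.24 and 3.50 in ETP, against 2.67 to 3.33 on the other side (2.94 ± 0.24 SE). LMPP 2 and 3 and ETP 2 thus lay within the range of the other side. Rag2, the partner subunit, differed by 1.48 ± 0.21 (SE), and by 0.88 without CLP. Xrcc6, which encodes Ku70 of the end-joining machinery, was called higher (1.21 ± 0.21 SE), but not without ETP (0.80) or MkP (0.94).

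Ighm, the immunoglobulin mu heavy chain locus, read 11.20, 11.14, 9.86, 10.20 and 10.21 in LMPP, 11.05 and 11.65 in CLP and 10.78, 11.20 and 11.32 in ETP. In MkE it read 9.26, 3.31, 4.31 and 3.63, in PreCFUE 3.68, 3.97 and 4.08 and in MkP 4.08, 2.83 and 4.15. MkE array 1 stood far above the other 9 arrays of its side, and the difference was 6.75 ± 0.56 (SE), and the 11 probe sets ran from -0.17 to 6.75.

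B cell genes were called higher for 8 of 17 tested (median 0.85). The mean level of the list was 6.30 and 6.26 on the CLP arrays and 3.97 to 4.48 on the other lymphoid arrays, against 3.45 to 3.98 on the other side. Vpreb1, a surrogate light chain of the pre-B receptor, read 9.49 and 8.95 in CLP and 3.78 to 4.85 in LMPP and ETP, against 2.97 to 5.80 on the other side (1.5 ± 0.20 SE, and -0.12 without CLP). Blnk, an adaptor of B cell receptor signalling, read 8.64 and 9.59 in CLP, 4.33, 4.66, 4.33, 6.03 and 6.05 in LMPP and 3.51 to 3.95 in ETP, against 3.45 to 4.29 (2.21 ± 0.19 SE, and 0.63 without CLP). Cd72, a coreceptor of B cells, was unlike these: it read 6.91 to 7.95 in LMPP, 6.87 to 7.84 in CLP and 7.22 to 7.75 in ETP, against 3.45 to 5.50 on the other side (2.94 ± 0.17 SE). The mature B cell gene Ms4a1 was low on all 20 arrays (2.5 to 3.42 against 2.61 to 3.26, -0.03 ± 0.33 SE).

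T and NK cell genes were mostly low on both sides. Of 16 T cell genes, 2 were called higher (median 0.29), and of 14 NK cell genes also 2 (median 0.14), with none lower. Cd27, a costimulatory receptor, read 7.37 to 9.72 against 3.94 to 5.84 (3.11 ± 0.19 SE). Klrd1, a lectin-like receptor of NK cells, was highest in ETP (7.55 to 8.16), then CLP (5.96 and 5.91) and LMPP (3.27 to 4.48), against 2.72 to 3.89 on the other side (2.71 ± 0.34 SE). Cd3e, a chain of the T cell receptor complex, was not called (0.16 ± 0.10 SE).

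Signalling and cytoskeletal proteins of leukocytes gave more calls. Of 23 tested, 13 were called higher and none lower (median 1.06), and the mean level of the list was 8.39 to 8.77 on lymphoid arrays, against 6.31 to 7.51 on the other side. Lcp1, which bundles actin in leukocytes, read 10.72 to 11.86 against 6.21 to 8.03 (4.15 ± 0.12 SE, limma adjusted p = 3.7e-26). Lsp1, another actin-binding protein, read 8.85 to 9.71 against 4.79 to 5.87 (4.05 ± 0.16 SE), with pairwise differences of 3.72 to 4.39. The surface glycoprotein Cd52 differed by 4.04 ± 0.21 (SE) and the inhibitory receptor Btla by 3.39 ± 0.23 (SE), where ETP array 3 (5.15) lay below MkP array 3 (5.36). Coro1a, which encodes coronin, read 10.13 to 11.55 on lymphoid arrays, against 8.44 to 9.17 in MkE, 5.14 to 6.58 in PreCFUE and 9.21 to 9.69 in MkP (2.49 ± 0.20 SE), so PreCFUE was lowest. Ptprc, which encodes CD45, differed by 1.67 ± 0.11 (SE).

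Genes of antigen presentation were higher for 6 of 13 tested (median 0.96). Ctss, a protease that trims the class II chaperone, read 9.97 to 11.18 against 3.45 to 6.02 (5.71 ± 0.17 SE). H2-Aa, a class II chain, read 8.58 to 10.68 in LMPP, 8.13 to 8.26 in CLP and 10.85, 7.18 and 6.98 in ETP, against 4.69 to 6.52 on the other side (3.13 ± 0.31 SE). ETP array 1 stood above ETP arrays 2 and 3 for H2-Aa, as it did for H2-Eb1 (7.16, 4.60 and 4.45), Cd74 (6.18, 4.63 and 4.25) and Mpeg1 (9.03, 5.86 and 5.53). H2-Ab1, the partner chain of H2-Aa, was not called (0.72 ± 0.23 SE), nor was Ciita, the master regulator of class II (0.02 ± 0.17 SE, at 3.06 to 3.79 against 2.95 to 3.71). Cd74, the class II chaperone, differed by 1.74 ± 0.32 (SE), with LMPP arrays 4 and 5 highest at 8.44 and 8.39.

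Some myeloid genes were higher on the lymphoid side. Of 17 monocyte and macrophage genes, 6 were called higher and none lower (median 0.21), and of 16 primary granule genes 3 were called higher and 1 lower (median 0.08). Mpo, the myeloperoxidase of granulocyte precursors, read 11.16, 11.45, 10.66, 10.82 and 10.79 in LMPP, 10.10 and 10.08 in CLP and 10.74, 10.45 and 10.87 in ETP. The MkE arrays read 7.76, 5.11, 6.34 and 4.76, in PreCFUE 4.20, 6.29 and 4.25 and in MkP 6.43, 5.44 and 5.56. All lymphoid arrays lay above the others (5.01 ± 0.42 SE, 32.2-fold), and MkE array 1 was highest of its side. Ctsg, a granule protease, was high in LMPP (7.61 to 10.20) and ETP (8.41 to 8.89) but not in CLP (5.62 and 5.17), against 4.11 to 5.89 on the other side (2.80 ± 0.31 SE). Elane, neutrophil elastase, was not called (0.11 ± 0.17 SE). Csf1r, the receptor for macrophage colony-stimulating factor, read 7.60 to 10.55 against 4.82 to 7.71 (3.41 ± 0.35 SE).

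Erythroid genes were the most often lower of the 23 lists, and unevenly over the 3 megakaryocyte-erythroid populations. Of 21 erythroid genes tested, 14 were called lower and none higher in lymphoid progenitors (median -2.30). The mean level of the list was 4.68 to 5.12 on lymphoid arrays, against 8.16 to 8.31 in PreCFUE, 7.16 to 7.30 in MkE and 5.50 to 5.99 in MkP. Of the 14, 9 were also separated.

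Aqp1, the water channel of the red cell membrane, read 3.13, 3.15, 3.16, 3.63 and 3.26 in LMPP, 3.65 and 4.20 in CLP and 4.10, 4.07 and 3.55 in ETP. On MkE arrays it read 10, 10.19, 10.23 and 10.68, in PreCFUE 10.74, 10.09 and 9.92 and in MkP 6.55, 6.69 and 5.48. MkP lay between, clear of both, and the difference was -5.22 ± 0.20 (SE). Car1, a carbonic anhydrase of red cells, differed by -5.69 ± 0.28 (SE) but was not separated. It read 3.32 to 4.87 in LMPP and CLP and 7.62, 6.31 and 6.40 in ETP, against 12.29 to 13.36 in MkE and PreCFUE and 7.81, 5.62 and 6.71 in MkP. Rhag, of the Rh blood group complex, read 2.72 to 3.16 on lymphoid arrays, against 3.25 to 3.63 in MkP and 9.28 to 9.64 in PreCFUE. Kel, which carries the Kell blood group antigens, read 3.06 to 3.42 on lymphoid arrays, against 3.48 to 3.70 in MkP and 7.87 to 8.16 in PreCFUE. The lymphoid and MkP levels of Rhag and Kel lay under the filter of 3.889. Their separation from MkP thus rests on levels with little signal over background.

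Epor, the erythropoietin receptor, was lower throughout the lymphoid side (4.56 to 5.40 against 6.26 to 8.27, -2.53 ± 0.16 SE). Rhd (-1.84 ± 0.20 SE) and Cldn13 (-1.77 ± 0.19 SE), a claudin of erythroid cells in mouse, were called, with PreCFUE at 8.85 to 8.99 and 7.87 to 8.32. Without PreCFUE their differences were -0.53 and -0.61. Hemgn, a nuclear protein of erythroid cells, read 10.04 to 10.42 in ETP, within the 9.70 to 10.42 of the megakaryocyte-erythroid side, and 5.24 to 8.19 in LMPP and CLP (difference -2.30 ± 0.22 SE). Alas2, the first enzyme of haem synthesis in red cells, was low on all 20 arrays (2.83 to 4.38 against 3.06 to 3.73).

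Of 19 haem and iron genes tested, 8 were called lower and none higher (median -0.46). Tfr2, a sensor of iron-loaded transferrin, read 6.95 to 8.70 in LMPP, 4.88 and 5.11 in CLP and 6.66 to 7.49 in ETP, against 9.55 to 11.51 on the other side (-4.19 ± 0.15 SE). The pathway enzymes Alad (-2.89 ± 0.24 SE), Urod (-1.82 ± 0.13 SE) and Fech (-1.79 ± 0.24 SE) were called, although the 4 probe sets of Fech ran from -2.57 to 0.29. Tfrc, the main transferrin receptor, was not: it read 7.80 to 8.77 in LMPP, 9.43 on both CLP arrays and 9.80 to 10.14 in ETP, against 8.40 to 8.68 in MkE, 9.98 to 10.73 in PreCFUE and 7.93 to 8.10 in MkP (0.32 ± 0.16 SE).

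Platelet genes were highest in MkP. Of 22 tested, 8 were called lower and none higher in lymphoid progenitors (median -0.92), and 3 of the 8 were separated. The mean level of the list was 4.18 to 4.87 on lymphoid arrays, against 7.67 to 7.76 in MkP, 5.22 to 5.34 in MkE and 4.47 to 4.48 in PreCFUE. Vwf, the von Willebrand factor that tethers platelets, read 2.38, 2.82, 3.37, 2.81 and 3.43 in LMPP, 3.14 and 3.23 in CLP and 3.18, 3.22 and 3.09 in ETP. In MkE it read 6.90, 6.79, 7.47 and 6.86, in PreCFUE 5.66, 5.98 and 5.29 and in MkP 11.12, 11.17 and 11.29. All 3 populations of that side lay clear of the lymphoid arrays (-4.84 ± 0.23 SE). Gp5, a subunit of the Vwf receptor, read 3.41 to 5.15 against 6.2 to 7.75 (-2.84 ± 0.19 SE), also without overlap.

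Pf4 differed by -3.16 ± 0.44 (SE) and was not called without MkP (-0.95). Itga2b, the integrin chain CD41, differed by -2.70 ± 0.15 (SE) but was not separated. It read 4.89 to 6.42 on lymphoid arrays, against 5.61 to 5.73 in PreCFUE, 8.12 to 8.60 in MkE and 10.99 to 11.17 in MkP. Its partner Itgb3 read 5.66 to 6.51 in ETP, against 9.71 to 10 in MkP and 3.21 to 3.91 in MkE and PreCFUE, and was not called (-0.98 ± 0.19 SE). F2r, the thrombin receptor, read 7.19 to 10.40 against 10.35 to 12.43 (-2.71 ± 0.45 SE). Selp, P-selectin, read 3.29 to 4.41 on lymphoid arrays, against 7.71 to 8.01 in MkP and 3.30 to 3.82 in MkE and PreCFUE, and its difference (-1.28 ± 0.16 SE) was 0.17 without MkP.

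Stem cell genes split in both directions: of 20 tested, 4 were called higher and 5 lower (median 0.14). Cd34, a sialomucin of early progenitors, read 10.54 to 11.59 in LMPP, 8.48 and 8.59 in CLP and 9.56 to 9.86 in ETP, against 4.97 to 5.65 in MkE, 3.29 to 3.58 in PreCFUE and 6.43 to 6.98 in MkP (4.71 ± 0.13 SE). Procr, the protein C receptor, was high in LMPP (6.52 to 8.60) and ETP (5.24 to 5.91) but 3.31 and 3.51 in CLP, against 2.82 to 3.72 on the other side (2.14 ± 0.19 SE). Tek, the angiopoietin receptor, and Slamf1, which encodes CD150, had differences of -2.53 ± 0.23 (SE) and -2.34 ± 0.12 (SE). Tek read 2.54 to 3.09 on lymphoid arrays, against 5.57 to 7.26 in MkE and MkP and 2.99 to 3.70 in PreCFUE. Meis1, a homeobox factor, was not called (-0.36 ± 0.16 SE), with PreCFUE lowest at 4.94 to 5.69.

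Mast cell genes were called once in each direction among 10 tested (median 0.09). Cpa3, carboxypeptidase A of mast cells, read 9.71 to 10.24 in ETP and 3.42 to 3.91 in LMPP and CLP, against 7.48 to 8.12 in MkE and 4.46 to 5.25 in PreCFUE and MkP (-0.03 ± 0.16 SE). Slc18a2, the vesicular monoamine transporter of mast cells and platelets, read 2.33 to 4.01 on lymphoid arrays, against 6.93 to 8.10 in MkE, 2.45 to 3.41 in PreCFUE and 5.73 to 6.02 in MkP (-2.38 ± 0.19 SE). Of 12 plasmacytoid dendritic genes, 3 were called higher and 1 lower (median 0.00). The part of cells of such other types in these results was not tested.

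**Figure D4:**
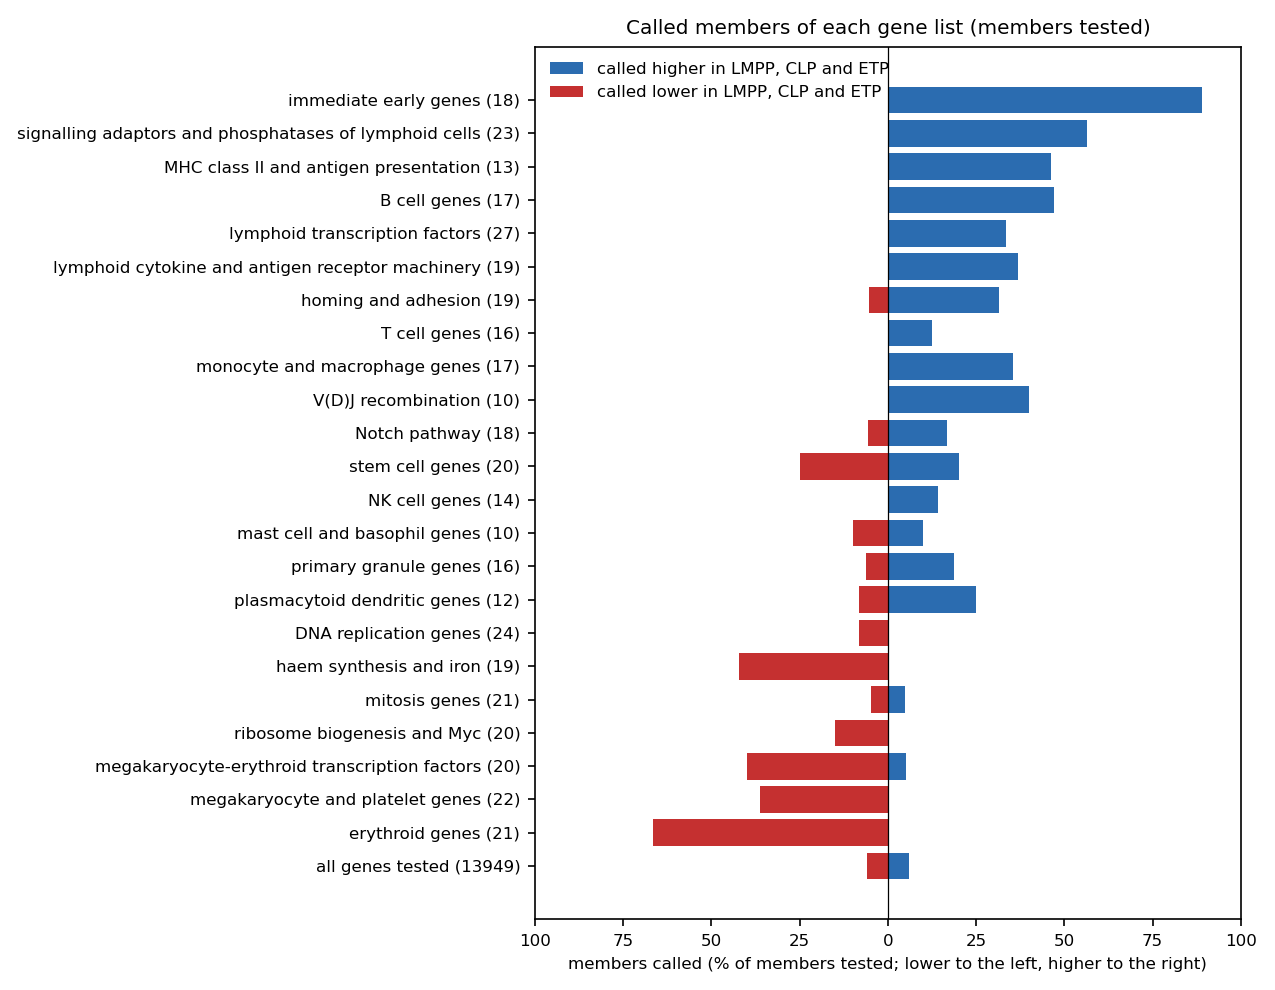
Share of tested members called higher (blue, to the right) or lower (red, to the left) in LMPP, CLP and ETP, in percent of members tested, for 23 gene lists ordered by their median difference and for all genes at the bottom (number tested in parentheses). Immediate early genes (16 of 18) and leukocyte signalling genes (13 of 23) have the highest shares called higher, and erythroid genes (14 of 21) the highest share called lower.

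The shares of growth genes called are set beside 5.93% higher and 5.99% lower over all genes. Of 21 mitosis genes, 1 was called higher and 1 lower (median -0.59), of 24 DNA replication genes 2 were called lower (median -0.43), and of 20 ribosome biogenesis and Myc genes 3 were called lower (median -0.60). Within the lymphoid side, mitosis genes ranged widely, with a mean level of 6.61 to 9.13, against 7.09 to 8.78 on the other side. Kif23, a kinesin of cell division, went against its list: it read 8.48 to 10.40 against 6.29 to 8.28 (2.23 ± 0.17 SE), although its 3 probe sets ran from 0.08 to 2.23. Plk1, a mitotic kinase, was called lower (-1.23 ± 0.29 SE), with LMPP at 6.52 to 7.54 and CLP and ETP at 4.46 to 5.37, against 5.69 to 7.95, and lost its call without CLP (-0.87), ETP (-0.81) or PreCFUE (-0.91). Cdc6, which loads the replicative helicase, was lower (-1.13 ± 0.20 SE), and not called without CLP array 2 (-0.79) or PreCFUE (-0.51).

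Immediate early genes had the highest share of calls, 16 of 18 higher (median 1.94), and they differed widely among arrays of one population. Fos read 13.04, 13.20, 13.26, 3.86 and 4.28 in LMPP, 9.88 and 11.32 in CLP and 9.59, 12.75 and 13.00 in ETP. The MkE arrays read 4.38, 6.03, 5.68 and 5.38, in PreCFUE 4.39, 3.96 and 5.13 and in MkP 4.56, 3.39 and 4.15. LMPP arrays 4 and 5 lay within the range of the other side while LMPP arrays 1 to 3 were the highest of all 20 arrays, and the difference was 6.0 ± 0.83 (SE). Without LMPP arrays 1 to 3 and ETP arrays 2 and 3 it was 3.46, that of Jun 1.70 (4.36 with all arrays), of Dusp1 1.48 (3.35), of Klf4 2.04 (3.53) and of Egr1 -0.26 (1.82).

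The separated and called genes also varied within their own side. Of the 635 higher genes, 445 (70.1%) differed among LMPP, CLP and ETP in a moderated F-test, against 61.4% of all genes tested. Of the 491 lower genes, 351 (71.5%) differed among MkE, PreCFUE and MkP, against 43.1% of all genes tested. On the side where each set is low, the shares were not above those of all genes to this degree. There, 283 higher genes (44.6%) differed among MkE, PreCFUE and MkP, and 280 lower genes (57%) among LMPP, CLP and ETP. The higher genes peaked in ETP for 321 (50.6%), in CLP for 176 (27.7%) and in LMPP for 138 (21.7%), against 35.6%, 35.2% and 29.2% of all genes tested. The lower genes peaked in PreCFUE for 308 (62.7%), in MkE for 130 (26.5%) and in MkP for 53 (10.8%), against 36%, 29% and 35% of all genes tested. MkP had the lowest level of its side for 339 (69%), against 45.2% of all genes tested. No test was made of these shares. Rgs2, a regulator of G protein signalling, shows such a spread: it read 11.18 to 12.39 in ETP, 9.46 to 11.25 in LMPP and 7.61 to 7.97 in CLP, against 3.25 to 5.86 on the other side (5.14 ± 0.22 SE). Ces2g, a carboxylesterase, did so on the other side, at 3.18 to 4.24 on lymphoid arrays, against 10.07 to 10.99 in MkE and PreCFUE and 5.41 to 6.95 in MkP (-5.55 ± 0.18 SE).

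Pair by pair, the number of called genes varied more for lower than for higher genes. Against PreCFUE, CLP had 1299 genes called higher (9.31%) and 3579 lower (25.7%), LMPP 1241 higher (8.9%) and 1382 lower (9.91%), and ETP 1570 higher (11.3%) and 1611 lower (11.5%). Against MkE, CLP had 1017 higher (7.29%) and 3324 lower (23.8%), LMPP 835 higher (5.99%) and 926 lower (6.64%), and ETP 998 higher (7.15%) and 977 lower (7%). Against MkP, CLP had 797 higher (5.71%) and 1827 lower (13.1%), LMPP 1132 higher (8.12%) and 410 lower (2.94%), and ETP 2003 higher (14.4%) and 966 lower (6.93%). LMPP and MkP thus had the fewest lower genes of the 9 pairs. CLP has 2 arrays, and its array medians (16.89 and 16.93) were the highest of the 20, whereas its upper quartiles (50.2 and 50.7) were the lowest. These 2 arrays correlated at 0.944, the lowest best correlation of the 20. The part of these features in the counts was not tested.

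Arrays that the rule did not use hold later lymphoid and later erythroid cells, but no later megakaryocytic cells. Later lymphoid cells (ProB, PreB, IgM+SP, CD4 and NKmature, 12 arrays) were set against later erythroid cells (CFUE and ProE, 6 arrays), with 1880 genes called higher (13.5%) and 2002 lower (14.4%). Of the 635 genes higher in lymphoid progenitors, 475 (74.8%) were called higher in later lymphoid cells as well, and 10 were called lower. Of the 491 lower genes, 318 (64.8%) were called lower there and 10 higher. The median later difference was 2.13 for the higher and -1.48 for the lower genes, against -0.05 for all genes.

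The later arrays allow the sex-linked transcripts to be held constant. Among arrays with Xist alone (ProB, CD4 and 2 PreB against CFUE), 468 of the 635 higher genes (73.7%) and 336 of the 491 lower genes (68.4%) were called in the same direction, against 14% higher and 14.6% lower of all genes tested. Among arrays with Eif2s3y alone (IgM+SP and 2 PreB against ProE), 409 (64.4%) and 342 (69.7%) were, against 13.2% and 18%. Alas2 differed by 4.64 among the arrays with Xist alone and by -4.65 among those with Eif2s3y alone. Some later arrays carried transcripts of other lineages: Klrd1 averaged 11.60 in ProB, the haem enzyme gene Alas2 8.42 in CD4 and 7.50 in ProB, and the B cell genes Ms4a1 and Ighm 6.54 and 12.38 in CD4. The 4 PreB arrays varied widely, with SDs of 2.88 for Alas2 (mean 6.44), 3.06 for Pf4 (mean 5.75) and 2.35 for Klrd1 (mean 5.37). Without ProB and CD4, 445 higher (70.1%) and 320 lower genes (65.2%) were called in the same direction, against 13.4% and 14.3% of all genes. Without ProB, CD4 and PreB, 445 higher (70.1%) and 319 lower genes (65%) were, against 13.6% and 15.6%.

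**Figure D5:**
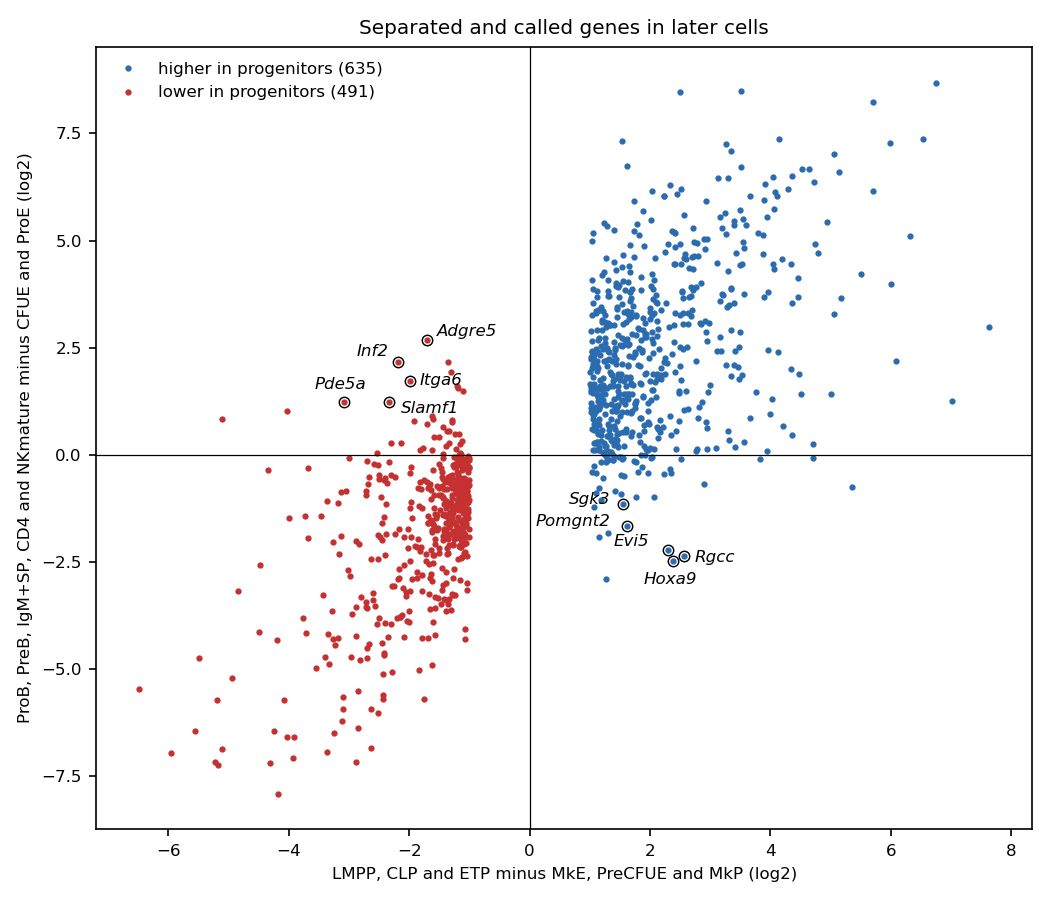
Difference between LMPP, CLP and ETP and MkE, PreCFUE and MkP (horizontal, log2) against the difference between later lymphoid and later erythroid cells (vertical, log2), for the 635 higher (blue) and 491 lower (red) genes. Most blue points lie above 0 (median 2.13) and most red points below it (median -1.48), and the 10 circled genes are those with the greatest differences in progenitors among the 20 called in opposite directions.

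Of the 12 leading genes of each direction, 11 higher and 11 lower ones were called the same way in later cells. The exceptions had the opposite sign without a call: Cnn3 differed by 5.35 in progenitors and -0.75 later, and Apoe by -5.12 and 0.84. Cd53 differed by 6.53 in progenitors and 7.37 in later cells, Satb1 by 6.0 and 7.28, Gata1 by -5.19 and -5.72, and Klf1 by -5.17 and -7.23. For Dntt the later difference was 2.99, smaller than the 7.64 in progenitors for which it was named. It was 2.08 without ProB and CD4, and 0.98 without ProB, CD4 and PreB. Bex6 (7.01 in progenitors, 1.25 later) averaged 8.77 in ProB, and without ProB and CD4 its later difference was -0.02. Chdh averaged 10.61 in ProB and 3.70 to 4.82 in the other later lymphoid populations. Without ProB and CD4 its later difference was 0.73, so the later calls of Bex6 and Chdh depended on these populations. Flt3 differed by 0.66 and Cd34 by 0.26 in later cells, neither called. Fli1, with a difference of 0.05 in progenitors, differed by 5.34 later.

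The 10 genes named here, 5 of each direction, have the greatest differences in progenitors among the 20 separated and called genes that were called in opposite directions at the 2 stages. That choice fixes a difference between the stages, so it is a description here. Of all genes tested, 20.3% passed the test of a difference between the stages. Hoxa9, a homeobox gene of progenitors, read 10.57 to 12.41 on lymphoid arrays against 8.49 to 10.08 on the other side (2.38), but averaged 4.75 in later lymphoid and 7.22 in later erythroid cells (-2.47). Adgre5, the adhesion receptor CD97, differed by -1.71 in progenitors and averaged 10.06 in later lymphoid and 7.39 in later erythroid cells (2.67). Rgcc, a regulator of the cell cycle, was higher in lymphoid progenitors (2.57) and lower later (-2.36), as were Evi5 (2.30 and -2.22), Pomgnt2 (1.62 and -1.67) and the kinase gene Sgk3 (1.56 and -1.15).

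Pde5a, the phosphodiesterase of cyclic GMP, was lower in lymphoid progenitors (-3.08) and higher later (1.24), as were Slamf1 (-2.34 and 1.22), the formin gene Inf2 (-2.19 and 2.16) and Itga6 (-1.99 and 1.73). The later comparison holds no megakaryocytic cells. Pde5a averaged 9.38 in MkP, against 4.03 in CFUE and 3.37 in ProE, and Inf2 8.07, against 4.86 and 4.02. Itga6 averaged 8.97, against 5.98 and 4.5, and Slamf1 6.12, against 3.28 and 3.42. Adgre5 did not drop in this way (6.69, against 7.82 and 6.95). The part of the missing branch in these opposite calls was not tested. Among later arrays with Xist alone, the differences of Rgcc (-0.69), Evi5 (-0.99), Sgk3 (-0.25), Pde5a (0.44) and Itga6 (0.87) were under 2-fold. That of Slamf1 was 0.70 among arrays with Eif2s3y alone and 0.78 without ProB and CD4. Hoxa9, Pomgnt2, Inf2 and Adgre5 passed 2-fold in the same direction in these 3 subsets.

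Across all 17 populations the 2 gene sets read between the sides in the stem and myeloid populations. The 635 higher genes averaged 7.55 in ETP, 7.16 in CLP and 7.09 in LMPP, against 5.34 in MkP, 5.30 in MkE and 4.83 in PreCFUE, levels that the choice of genes fixes. The other populations entered the choice only through the shared spread of the fit, the brightest probe set and the filter. In these populations the 635 genes averaged 6.92 to 6.98 in CD4, NKmature, PreB and IgM+SP, 7.39 in ProB and 6.94 in GM. They averaged 6.55 in LTHSC, 6.47 in GMP and 6.34 in STHSC, and 4.67 in ProE and 4.63 in CFUE. Of these genes, 490 (77.2%) were nearer to the lymphoid than to the megakaryocyte-erythroid mean in GM, 363 (57.2%) in LTHSC, 322 (50.7%) in GMP and 317 (49.9%) in STHSC. The 491 lower genes averaged 6.09 to 6.57 in the later lymphoid populations, 7.11 in LTHSC, 6.99 in GM, 6.81 in GMP and 6.69 in STHSC, against 8.30 in CFUE and 8.02 in ProE. Of the lower genes, 192 (39.1%) were nearer to the lymphoid mean in GM, 225 (45.8%) in LTHSC, 251 (51.1%) in GMP and 316 (64.4%) in STHSC. Vwf, for one, averaged 10.01 in LTHSC, and Mpo 13.82 in GMP and 11.35 in STHSC.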

How the data were processed

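Affymetrix arrays of 17 marrow populations (47 arrays) were used. The authors deposited RMA intensity values on a linear scale, per the labels. How arrays were scaled is not given in the sources used here. Values were taken as log2 of the deposited intensity with no pseudocount. Of 45101 probe sets, 34958 carried 1 gene symbol, 932 several and 9211 were unnamed here. The brightest probe set stood for each of 18194 genes (symbols updated through RefSeq, GRCm38.p6), and 13949 with a population mean above 3.889 (log2) were tested.

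All 47 arrays entered 1 model of 17 population means (30 residual degrees of freedom) in limma 3.58.1 (R 4.3.3), with moderated tests adjusted by Benjamini-Hochberg over all genes tested. The scripts were tested on simulated data. The precision is limited by the number of arrays. Same-numbered arrays of different populations correlated between -0.088 and 0.204 in their deviations (25 pairs, 5 above 0.1), so numbers were not taken as pairs.

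Named genes were the 12 largest differences without overlap in each direction, the 5 of each direction with the largest smallest difference over 9 pairs, the 5 largest of each direction called oppositely later, the factors, and members of 23 lists (434 genes, 394 tested) in order of size. Members of the 2 sides and the lists were chosen with earlier results of these data known. Alternatives changed the probe set rule, filter, scaling, floor, blocks, weights and arrays. Those on immediate early genes, single sex-linked classes, ProB, CD4 and PreB were chosen after seeing the data.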

Additional observations from a re-analysis of the deposited data

Results flagged for a closer look

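Within the LMPP and MkE arrays, the groups of 4 or 5 arrays, 16 of 262 sets of values (131 genes) had 1 array whose gap to its neighbour was a share of the whole range above Dixon's critical value. Chance flags about 1 in 20 groups. The share was 0.832 for Ighm in MkE array 1 (9.26, a range of 5.95), 0.837 for Hes1 in LMPP array 1 (6.31, a range of 2.64) and 0.823 for Tfr2 in LMPP array 3 (8.70, a range of 1.75). It was 0.712 for Cd53 in LMPP array 3 (9.29, lowest) and 0.863 for Kel in MkE array 3 (8.05, highest). In the other 11 the range was under 1 on the log2 scale. In LMPP the share was 0.74 for Aqp1 (array 4, highest), 0.848 for Nckap1 (array 2, lowest), 0.828 for Ptprc (array 3, lowest) and 0.759 for Sgk3 (array 2, highest). In MkE array 1 it was 0.855 for Bex6, 0.85 for Chdh, 0.926 for Pomgnt2 and 0.861 for Tal1, all highest, and 0.921 for Kif23, lowest. In MkE array 3 it was 0.936 for Sox4 and 0.838 for Vwf, both highest.

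For 10 named genes, the difference between lymphoid and megakaryocyte-erythroid progenitors and that between later lymphoid and later erythroid cells were called in opposite directions. They were chosen for those opposite calls, so the sizes below are a description with no test. The progenitor difference minus the later difference was 4.93 for Rgcc, 4.85 for Hoxa9, 4.52 for Evi5, 3.29 for Pomgnt2 and 2.71 for Sgk3. It was -4.33 for Pde5a, -3.57 for Slamf1, -4.35 for Inf2, -3.73 for Itga6 and -4.38 for Adgre5.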

How the results depend on the processing

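The counts of 827 higher and 836 lower genes moved most with the class of sex-linked transcripts as a block, and the lower count also with the populations entered. The count of lower genes was 1335 without LMPP, 544 without CLP, 1282 without ETP, 1422 without MkP and 545 with the mean of all probe sets. Separated and called lower genes (491) numbered 918 without LMPP, 829 without ETP and 1217 without MkP. The rule asks less of 2 means than of 3. Genes called in all 9 pairs (198 higher, 89 lower) became 322 higher without CLP and 313 higher with the lymphoid arrays that carry both transcripts alone, and 177 lower without LMPP, 265 lower without MkP and 59 lower with the mean of all probe sets. Blocking on the class of sex-linked transcripts gave 1970 higher and 1504 lower calls, and 568 and 347 in all 9 pairs. Between the Xist-only and Eif2s3y-only classes that block rests on the 4 PreB arrays, which varied widely for some genes. The cause was not tested. Leaving out 1 array at a time gave 816 to 846 higher and 780 to 910 lower genes. It gave 614 to 654 and 454 to 558 separated and called genes, 174 to 200 and 82 to 96 in all 9 pairs, 1844 to 1919 and 1973 to 2049 later, and 468 to 475 and 313 to 321 of the separated and called genes called the same way later. With the replicate block, counts were 827 and 865, and it changed no count by over 1.5 times.

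Over all alternatives, 79 of the 110 called named genes never lost their call and 31 did at least once. The sign turned with the class of sex-linked transcripts as a block for Id2 (-0.17), Lmo2 (0.019), Ccr9 (-2.76), Klrd1 (-1.30), Mpeg1 (-1.21), Hoxa9 (-0.19), Plk1 (1.87), Tcf3 (1.16) and Eif2s3y (-2.22). It turned for Cpa3 without LMPP (1.02), without CLP (1.08) and with the lymphoid arrays that carry both transcripts alone (1.14). It turned for Vpreb1 without CLP (-0.12) and on the arrays with both transcripts alone (-0.064). Without PreCFUE it turned for Fli1 (-1.22) and Plek (-1.02), without MkP for Selp (0.17) and Itgb3 (1.11), and without LMPP arrays 1 to 3 and ETP arrays 2 and 3 for Egr1 (-0.26). The cause was not tested. CLP rests on 2 arrays, and levels near the filter have little signal over background.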
